A study of Mus musculus with 9 samples.

Results

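The genes described here are 9 genes of haem synthesis and iron import, Alas2, Alad, Uros, Urod, Cpox, Ppox, Fech, Tmem14c and Tfrc, among the 15265 genes counted in Drop-seq libraries of whole mouse bone marrow. They were taken by symbol, and all 9 were found in the tables. Drop-seq captures single cells in droplets and tags the 3′ ends of their RNA with a barcode per cell. Marrow of C57BL/6 mice 2 to 3 weeks old was profiled in 4 libraries of the genotype NG2-cre/Pot1a fl/fl and in 5 libraries of the genotype NG2-cre/Pot1a wt/wt, with 100 cell barcodes in each. Both groups carry the NG2-cre transgene, in which the promoter of the proteoglycan NG2 drives Cre recombinase in mesenchymal cells, and Pot1a, which encodes a telomere-binding protein, is flanked by loxP sites in the fl/fl group only. Deletion was therefore directed at cells of the marrow stroma, whereas the genes described here are genes of red cell precursors. Which mouse each library came from is not given, and the study names fewer mice in each group than there are libraries. The p-values below therefore describe variation from library to library, some of it perhaps technical, and are too small where libraries share a mouse.

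Haem is an iron-containing ring that is built by a chain of enzymes beginning and ending in the mitochondrion, and in red cell precursors most of it is put into haemoglobin. Alas2 encodes the erythroid form of aminolaevulinate synthase, the first and rate-limiting step. Alad, Uros and Urod encode enzymes of the cytosolic steps, in which aminolaevulinate is condensed, closed into a ring and decarboxylated. Cpox and Ppox encode the oxidases that turn coproporphyrinogen into protoporphyrin, Tmem14c encodes an inner-membrane protein needed to bring protoporphyrinogen into the mitochondrial matrix, and Fech encodes ferrochelatase, which inserts the iron. Tfrc encodes the transferrin receptor, through which precursors take up iron.

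The messenger RNAs of the first enzyme and of the iron importer carry iron-responsive elements, hairpins bound by iron regulatory proteins when iron is scarce. This binding holds back translation when the hairpin lies before the coding region, as in Alas2, and protects the RNA from decay when it lies after it, as in Tfrc. The hairpins are shown because they are the regulatory sequence of the first enzyme and of the importer, and the other 7 members were not searched. The Alas2 and Tfrc transcripts of GENCODE (GRCm38) were searched for a C, 5 bases, the loop CAGTGN with any base but G at the last position, and 5 bases able to pair with the first 5 (G-U pairs allowed), on the coding strand only. Alas2 held 1 such element, in the 5′ UTR, and Tfrc held 4, all in the 3′ UTR. They are printed 5′ to 3′ as DNA, 27 bases each, with the 6 bases of the loop in capitals; all lie within 1 exon on the plus strand.
Alas2, chrX:150547459-150547485: tggttcgtcctCAGTGCagggcaacag
Tfrc element A, chr16:32631220-32631246: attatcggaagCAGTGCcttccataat
Tfrc element B, chr16:32631599-32631625: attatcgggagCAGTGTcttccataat
Tfrc element C, chr16:32631664-32631690: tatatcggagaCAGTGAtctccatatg
Tfrc element D, chr16:32631711-32631737: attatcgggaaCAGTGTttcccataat

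Many genes of red cell precursors, haem enzymes among them, are known to be bound by the erythroid factor GATA1. The 250 bases before each annotated start were searched for GATAA on either strand (RefSeq, GRCm38.p6). Of the 9 members, 8 were matched by symbol, with 11 starts, and Fech was not. The motif was found before 4 of the 11 starts, in Alas2, Uros, Cpox and Tmem14c, and before 22.6% of all 32841 starts in the table. CCACCC, the core of the box bound by the erythroid factor KLF1, was found before 3 of the 11 starts (Alas2, Tfrc and Tmem14c) and 28.1% of all starts. CCAAT was found before 6 of the 11 starts, in 5 members (Alad, Urod, Ppox, Tfrc and Tmem14c), and before 33.9% of all starts. These matches are descriptions of the sequence and not measured sites. The 4 stretches with a GATAA are shown with the match in capitals, printed in the direction of transcription up to the base before the start, so that TTATC is the motif on the other strand. The Uros stretch precedes the more downstream of its 2 annotated starts; Uros and Alad are each known to have a housekeeping and an erythroid promoter, which counts of 3′ ends do not separate.
Alas2, plus strand, chrX:150547167-150547416: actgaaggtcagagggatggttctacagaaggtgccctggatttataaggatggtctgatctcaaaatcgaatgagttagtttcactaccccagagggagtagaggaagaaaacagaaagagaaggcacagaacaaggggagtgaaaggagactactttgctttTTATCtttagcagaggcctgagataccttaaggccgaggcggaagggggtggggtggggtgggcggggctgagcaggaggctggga
Uros, minus strand, chr7:133702501-133702750: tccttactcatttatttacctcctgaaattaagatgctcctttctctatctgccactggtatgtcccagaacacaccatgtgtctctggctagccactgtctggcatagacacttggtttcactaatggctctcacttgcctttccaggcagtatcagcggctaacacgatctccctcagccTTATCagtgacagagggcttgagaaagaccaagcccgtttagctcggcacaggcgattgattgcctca
Cpox, plus strand, chr16:58669958-58670207: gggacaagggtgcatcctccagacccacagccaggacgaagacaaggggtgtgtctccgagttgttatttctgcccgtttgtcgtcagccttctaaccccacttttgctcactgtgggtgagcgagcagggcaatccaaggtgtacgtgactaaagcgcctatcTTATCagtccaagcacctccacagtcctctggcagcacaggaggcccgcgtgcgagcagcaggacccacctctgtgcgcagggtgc
Tmem14c, plus strand, chr13:41016000-41016249: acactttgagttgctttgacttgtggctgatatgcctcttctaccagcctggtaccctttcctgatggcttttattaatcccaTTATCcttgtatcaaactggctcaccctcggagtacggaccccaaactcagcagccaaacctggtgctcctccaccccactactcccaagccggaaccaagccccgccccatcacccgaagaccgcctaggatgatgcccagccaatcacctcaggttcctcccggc

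In Alas2 and in Cpox the match began at the same distance, 86 bases before the start, and it began 68 bases before the start in Uros and 167 in Tmem14c.

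The libraries held 119459 to 465277 counts and, after 1 of 900 barcodes was removed, 899 cells, with library medians of 955.5 to 3704 counts per cell. Cells were clustered without the 9 genes. Clusters 2 and 5 carried erythroid markers and are called erythroid-like here. They are cluster 2, with 164 cells with Hba-a1, Hba-a2 and Hemgn among its leading genes and 25 erythroid markers at least 2-fold higher than in other cells, and cluster 5, with 102 cells led by Mt2, Fam132a and Car1 and 8 such markers. Cluster 5 had the lower share of globin counts, 0.766% against 13.3% in cluster 2, and is called early erythroid-like. Cluster 2 was divided by the share of globin among a cell's counts at 10%, a boundary set after the data were seen, into 75 globin-poor and 89 globin-rich cells; 23 cells lay between 8% and 12%, so these are ranges of one series of cells and not types. Pot1a itself had 1 to 15 counts in the Pot1a fl/fl and 2 to 10 in the Pot1a wt/wt libraries and 0 in the 16 mesenchymal/osteolineage-like cells, too few to check the deletion. The 4 Pot1a fl/fl libraries held 24, 15, 28 and 20 erythroid-like cells and the 5 Pot1a wt/wt libraries 29, 36, 42, 37 and 35. Pot1a wt/wt 2 and 3 shared 19 cell barcodes with correlated counts (r = 0.961 to 0.999), whereas no other pair of libraries shared any, so these libraries appear to hold some of the same cells.

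Summed over libraries, erythroid-like cells held most of the RNA of every member. They gave 34.0% of all counts but 92.3% of the Cpox counts (95% Wilson interval 90.9% to 93.6%, 1564 counts), 90.2% of Alad (87.0% to 92.6%, 427 counts) and 82.2% of Alas2 (78.5% to 85.3%, 493 counts). The lowest share was that of Tfrc, at 70.4% (68.0% to 72.7%, 1456 counts), and the shares of Uros, Urod, Ppox, Fech and Tmem14c lay from 75.9% to 82.4%. Single libraries differed, and erythroid-like cells gave 16.2% to 52.9% of their counts. The Tfrc share ran from 35.1% to 74.4% in Pot1a fl/fl and from 62.1% to 81.2% in Pot1a wt/wt libraries, and the Uros share was as low as 33.3% in a Pot1a fl/fl library. Among Pot1a wt/wt libraries the lowest median share was that of Ppox, 73.3%. Intervals and limits of this kind cover counting error only.

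Outside the erythroid-like clusters, Tfrc was the member with an order among lineages in sums over libraries. Tfrc (chromosome 16, 32608896 to 32632794, GRCm38.p6) stood at 363 CPM (counts per 1000000 counts of the class) in B-lineage-like cells (Poisson 95% interval 318 to 414), at 208 CPM in granulocyte-like cells (176 to 244), at 187 CPM in the unnamed cluster 8 (131 to 261) and at 67.1 CPM in monocyte/macrophage-like cells (32.2 to 123). The B-lineage level was 352 ± 86.0 CPM by library (SD, n = 9), against 209 ± 114 CPM in granulocyte-like cells (SD, n = 9), and cluster 8 did not differ from granulocyte-like cells beyond its interval. By library the ranges overlapped, at 207 to 485 CPM in B-lineage-like and 91.8 to 462 CPM in granulocyte-like cells. In libraries with at least 5 cells of the class, Tfrc ran from 0 to 530 CPM in monocyte/macrophage-like cells (8 libraries) and from 94.0 to 675 CPM in cluster 8 (7 libraries). The monocyte/macrophage-like level rested on 10 counts. Tmem14c (chromosome 13, 41016250 to 41022582) was level across lineages instead, at 102 CPM in B-lineage-like, 127 CPM in granulocyte-like and 161 CPM in monocyte/macrophage-like cells, with intervals that overlapped. Cpox, the most erythroid-restricted by share, was at 89.2 CPM in B-lineage-like cells (67.4 to 116) and 57.5 CPM in granulocyte-like cells (41.4 to 77.7). The 16 mesenchymal/osteolineage-like cells, the class in which NG2-cre is directed to act, held 0 counts of Alas2, Alad, Cpox and Ppox, which allows up to 91.0 CPM each (3 counts; the 95% Poisson intervals drawn in the plot of levels by class end at 112 CPM), and 6 counts of Tfrc.

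**Figure D1:**
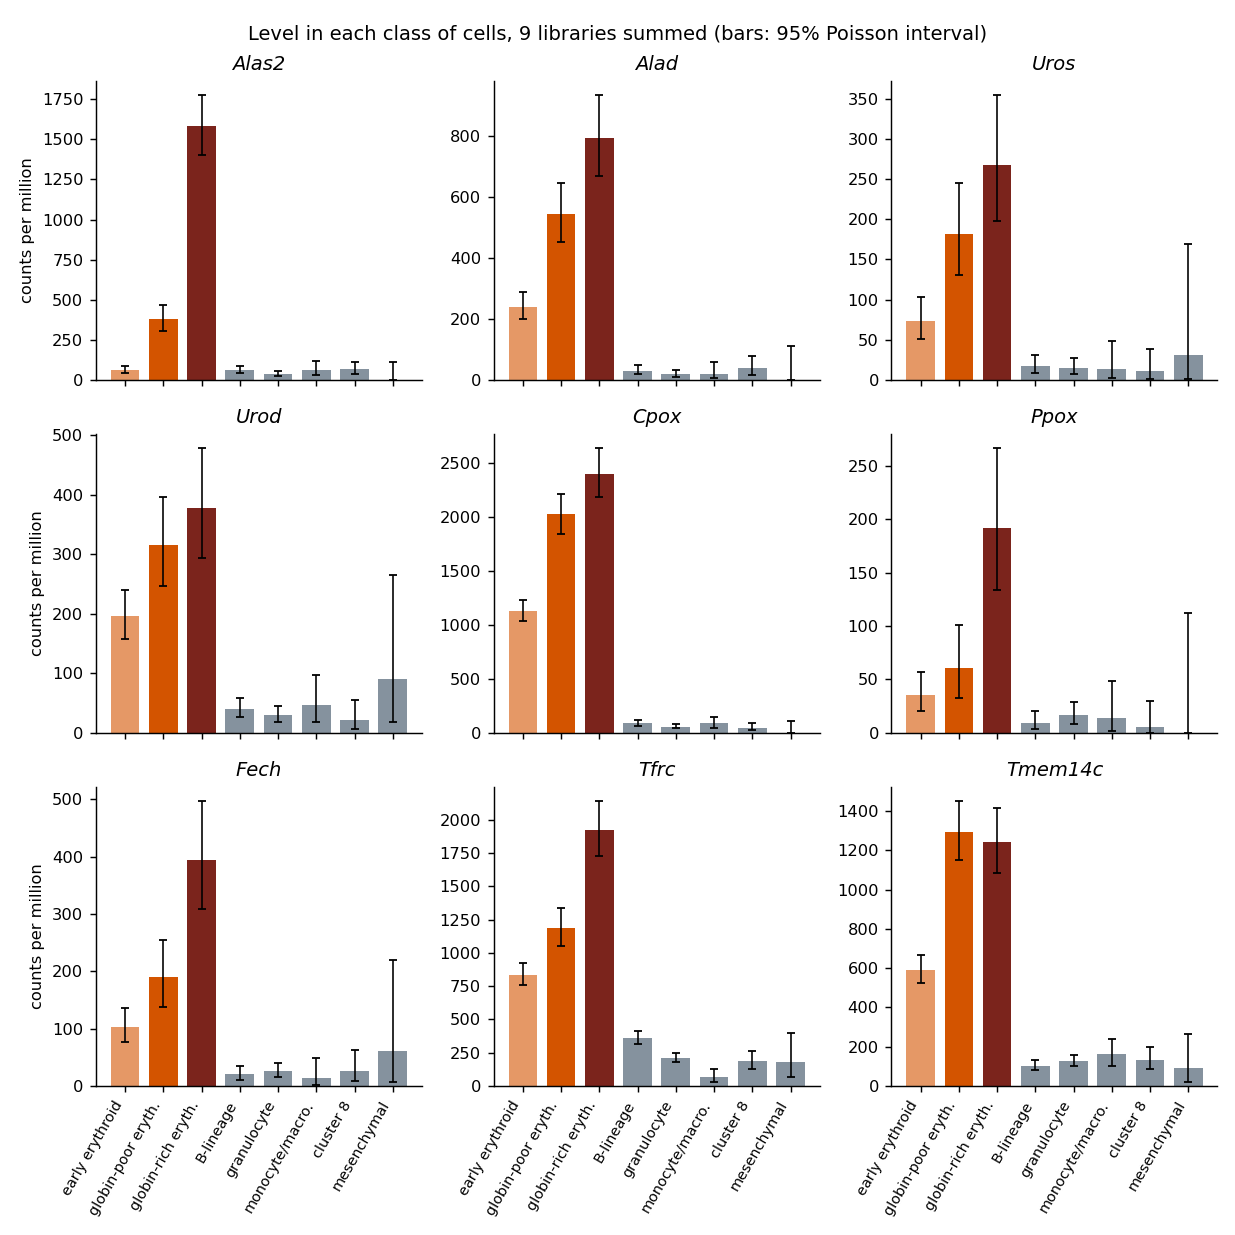
Level of each gene in CPM of the counts of a class, summed over 9 libraries, in the 3 erythroid-like stages (orange to dark red) and in 5 other classes (grey); error bars are 95% Poisson intervals and cover counting error only. All 9 genes were highest in globin-rich or, for Tmem14c, in globin-poor cells, and Tfrc kept 363 CPM in B-lineage-like cells.

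Along the erythroid stages the first enzyme behaved differently from the others. Alas2 (chromosome X, 150547417 to 150570622) was at 59.0 CPM in early erythroid-like cells (Poisson 95% interval 39.2 to 85.3), at 380 CPM in globin-poor cells (305 to 468) and at 1582 CPM in globin-rich cells (1405 to 1776). Its early level was close to the 51.0 CPM of all cells outside the erythroid-like clusters (ratio 1.16, interval 0.73 to 1.79), so in the sum over libraries its level there could not be told from that of the other cells. Globin-rich cells stood 26.8-fold above early cells (18.2 to 41.1), and the order early, globin-poor, globin-rich held in 8 of the 8 libraries that had at least 3 cells of each stage. In the early cells the libraries differed widely, with 42.4, 35.0, 0 and 0 CPM in Pot1a fl/fl 1 to 4, against 499.7, 34.7, 25.7, 24.4 and 216 CPM in Pot1a wt/wt 1 to 5. Pot1a wt/wt 1 and 5, on 12 and 5 counts, were thus above the 17.0 to 136 CPM of the other cells of any library. Globins in the early cells differed by library too, from 4434 to 19642 CPM in Pot1a fl/fl and from 1900 to 52846 CPM in Pot1a wt/wt. The part of this globin difference in the early Alas2 values was not tested.

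Cpox, Alad, Urod and Tfrc were already present in early cells and climbed less than Alas2, as did the remaining members. Early cells stood above the cells outside the erythroid-like clusters for Tmem14c (4.9-fold, 4.1 to 5.9) and Uros (4.7-fold, 2.8 to 8.1) too. The same held for Fech (4.3-fold, 2.8 to 6.8) and Ppox (2.9-fold, 1.5 to 5.9). Cpox (chromosome 16, 58670208 to 58680391) was at 1131 CPM in early cells, 16.3-fold above the cells outside the erythroid-like clusters (13.3 to 20.0), and reached 2024 CPM in globin-poor and 2398 CPM in globin-rich cells. Alad (chromosome 4, 62505984 to 62520063) was at 240.2, 544 and 794 CPM in the 3 stages, and its early level was 9.88-fold above the other cells (6.88 to 14.4). Urod (chromosome 4, 116989965 to 116994436), at 196, 315 and 378 CPM, had the smallest increase, 1.93-fold in globin-rich over early cells (1.39 to 2.66). Tfrc was at 836, 1191 and 1927 CPM, an increase of 2.30-fold (1.99 to 2.67), which was seen in 8 of 8 libraries.

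Fech, Ppox and Uros had the fewest counts of the members. Fech (chromosome 18, 64456542 to 64489098) was at 103, 189.8 and 394 CPM in the 3 stages, 3.82-fold higher in globin-rich than in early cells (2.62 to 5.61), and higher in 7 of 8 libraries. Ppox (chromosome 1, 171276991 to 171281193), with 87 counts in all, was at 35.8, 60.4 and 192 CPM, a 5.35-fold increase (2.92 to 10.2). Its first step was 1.69-fold with an interval that reached below 1 (0.77 to 3.63), and its step into globin-rich cells was 3.17-fold (1.66 to 6.38). Uros (chromosome 7, 133686142 to 133710467) was at 73.8, 181 and 268 CPM, with a step from globin-poor to globin-rich cells of 1.48-fold whose interval reached below 1 (0.96 to 2.29).

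In sums over libraries, Tmem14c was the member whose CPM did not increase at both steps. It was at 592 CPM in early, 1294 CPM in globin-poor and 1243 CPM in globin-rich cells. Globin takes up a large part of the counts of the latest cells, and in CPM of the non-globin counts the globin-rich level was 1.22-fold above the globin-poor one (1.02 to 1.46), so the sign of this step depended on the scale. On that scale globin-rich cells stood above early cells for all 9 members, from 2.54-fold for Urod to 35.4-fold for Alas2. Library by library, CPM was higher in globin-rich than in globin-poor cells in 5 of 8 libraries for Tmem14c, 4 for Uros, 6 for Alad, Urod and Ppox, 7 for Cpox and Fech and 8 for Alas2 and Tfrc.

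Finer ranges of globin share showed where the patterns separate, on the scale of non-globin counts. Alas2 was at 28.4 CPM in cells with under 1% globin, 182 at 1% to 5%, 770.4 at 5% to 10%, 1087 at 10% to 20%, 2876 at 20% to 40% and 4677 at 40% or more. Each of these steps was upward, and the intervals of neighbouring ranges overlapped only between 5% to 10% (589 to 989.5) and 10% to 20% (861 to 1355). Tmem14c was at 566, 1081, 1591, 1789 and 1882 CPM in the first 5 ranges and at 259.8 CPM (53.6 to 759) in the last. In that last range it was counted in 2 of 14 cells (14.3%, exact binomial interval 1.78% to 42.8%), against 29 of 39 cells at 20% to 40% globin (74.4%, 57.9% to 87.0%). The 14 cells came from 5 libraries, 5 of them from Pot1a fl/fl 3, 1 from Pot1a fl/fl 4, 4 from Pot1a wt/wt 1, 3 from Pot1a wt/wt 5 and 1 from Pot1a wt/wt 2, and had a median of 1207.5 counts, against 2057 in the range before. In the same 14 cells Tfrc stood at 3291 (2329 to 4517), Cpox at 2685 (1824 to 3811) and Fech at 1126 CPM of non-globin counts (599 to 1925), so they were not low in every member. The stages were defined on the same cells, and these levels are descriptions with no test.

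**Figure D2:**
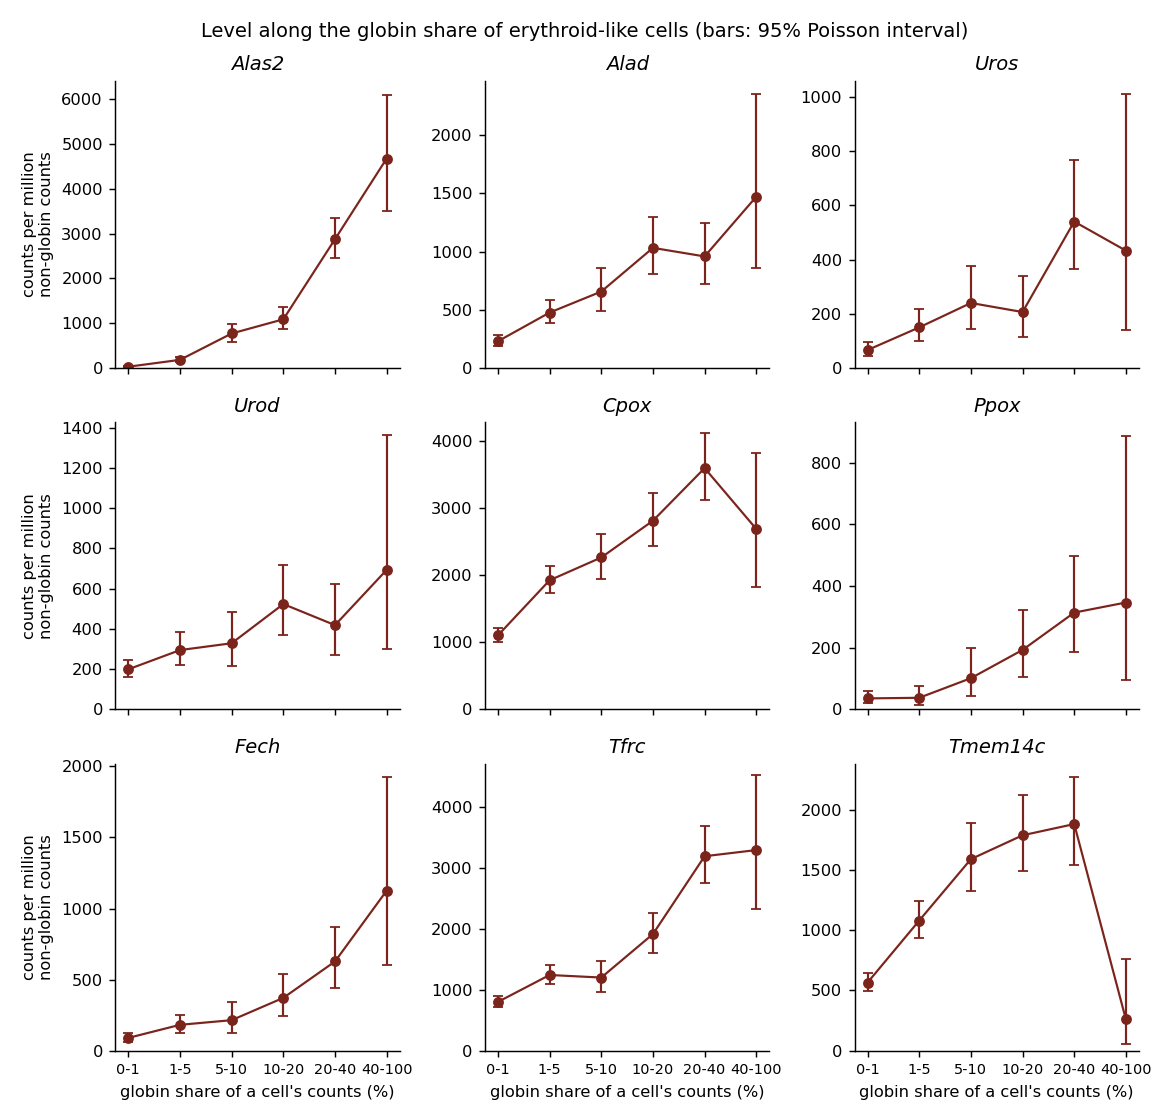
Level of each gene in CPM of the non-globin counts in erythroid-like cells of 9 libraries, by the share of globin in a cell's counts; points are sums over 82, 61, 32, 38, 39 and 14 cells from left to right and bars are 95% Poisson intervals for counting error. Alas2 increases to 4677 in the last range, and Tmem14c drops there to 259.8.

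Shares of cells with a count were compared at equal depth. With each cell thinned to 1000 counts, which left out 15 of 87 Pot1a fl/fl and 13 of 179 Pot1a wt/wt erythroid-like cells, Alas2 was counted in 31.9% of Pot1a fl/fl and 35.5% of Pot1a wt/wt erythroid-like cells, against 48.3% of Pot1a fl/fl and 52.0% of Pot1a wt/wt cells before thinning. In B-lineage-like cells, which should lack it, thinned Alas2 was counted in 4.82% of Pot1a fl/fl and 7.69% of Pot1a wt/wt cells, at unthinned medians of 2650.0 counts in Pot1a fl/fl and 1939 in Pot1a wt/wt. By library this share averaged 9.38% ± 12.0 (SD, n = 4) in Pot1a fl/fl and 6.22% ± 8.29 (SD, n = 5) in Pot1a wt/wt, the opposite order. Erythroid-like cells had medians of 2638 counts in Pot1a fl/fl and 2601 in Pot1a wt/wt. Thinned Cpox was counted in 66.7% of Pot1a fl/fl and 77.1% of Pot1a wt/wt erythroid-like cells and in 9.64% of Pot1a fl/fl and 12.0% of Pot1a wt/wt B-lineage-like cells. By library, the thinned Cpox share averaged 64.3% ± 12.4 (SD, n = 4) in Pot1a fl/fl and 74.8% ± 14.6 (SD, n = 5) in Pot1a wt/wt erythroid-like cells, a difference within the spread between libraries.

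The genotypes were first compared in sums over all cells of a library, to ask whether marrow with Pot1a-deleted stroma carries less RNA for haem synthesis. All 9 members were lower in the Pot1a fl/fl than in the Pot1a wt/wt libraries on average, and for 3 of them, Cpox, Tfrc and Alad, every Pot1a fl/fl library lay below every Pot1a wt/wt library, as did 1.07% of the 4559 genes tested. None of the 9 passed the threshold over all genes tested. In such sums fewer erythroid cells and less RNA per cell cannot be told apart.

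Cpox had 464, 164, 301 and 443 CPM in Pot1a fl/fl 1 to 4, against 568, 969, 1129, 624 and 530.2 CPM in Pot1a wt/wt 1 to 5. Tfrc had 505, 203, 326 and 539 CPM in the Pot1a fl/fl libraries, against 676, 711, 623, 662 and 719 CPM in the Pot1a wt/wt libraries. Alad had 153, 64.0, 142 and 135 CPM in the Pot1a fl/fl libraries, against 179, 173, 211, 196 and 251 CPM in the Pot1a wt/wt libraries. In all 3 genes Pot1a fl/fl 2 was the lowest library, and it also held the fewest erythroid-like cells. Relative to its mean, Tfrc in Pot1a wt/wt varied least of these groups, at 678 ± 38.9 CPM (SD, n = 5), against 393 ± 158 CPM in Pot1a fl/fl (SD, n = 4).

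Relative to its mean, Alas2 spread most within each genotype. It had 148, 35.6, 243 and 148 CPM in Pot1a fl/fl 1 to 4, against 568, 117, 131, 128 and 439 CPM in Pot1a wt/wt 1 to 5. The difference of the means thus rested on Pot1a wt/wt 1 and 5, which were also the Pot1a wt/wt libraries with the largest share of globin among the counts of erythroid-like cells, 19.3% and 15.1% against 2.17% to 4.68% in the other Pot1a wt/wt libraries. Fech had its highest values in the same libraries, 147 and 125.6 CPM, against 62.0 to 86.1 CPM in the other Pot1a wt/wt and 24.9 to 83.7 CPM in the Pot1a fl/fl libraries.

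The remaining members overlapped between genotypes as well. Ppox ranged from 8.6 to 33.5 CPM in Pot1a fl/fl and from 23.8 to 79.5 CPM in Pot1a wt/wt libraries, on 4 to 9 counts per Pot1a fl/fl and 8 to 20 per Pot1a wt/wt library. Uros ranged from 21.3 to 80.7 CPM in Pot1a fl/fl and from 48.9 to 112 CPM in Pot1a wt/wt. Urod ranged from 53.4 to 112 CPM in Pot1a fl/fl and from 94.6 to 174 CPM in Pot1a wt/wt, and Tmem14c from 178 to 427 CPM in Pot1a fl/fl and from 377 to 513 CPM in Pot1a wt/wt. For these 4 genes the ranges thus met, but in each of them the lowest library was a Pot1a fl/fl one. The 9 members together made up 1548 ± 537 CPM in Pot1a fl/fl (SD, n = 4) and 2725 ± 264 CPM in Pot1a wt/wt libraries (SD, n = 5). These sums did not overlap (758 to 1919 CPM against 2278 to 2920.3 CPM). Cpox and Tfrc, themselves without overlap, had the highest means of the 9 in each genotype. No share over all genes was computed for such a sum. In erythroid-like cells the same sum overlapped, at 2519 to 5997 CPM in Pot1a fl/fl and 4760 to 8007 CPM in Pot1a wt/wt.

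**Figure D3:**
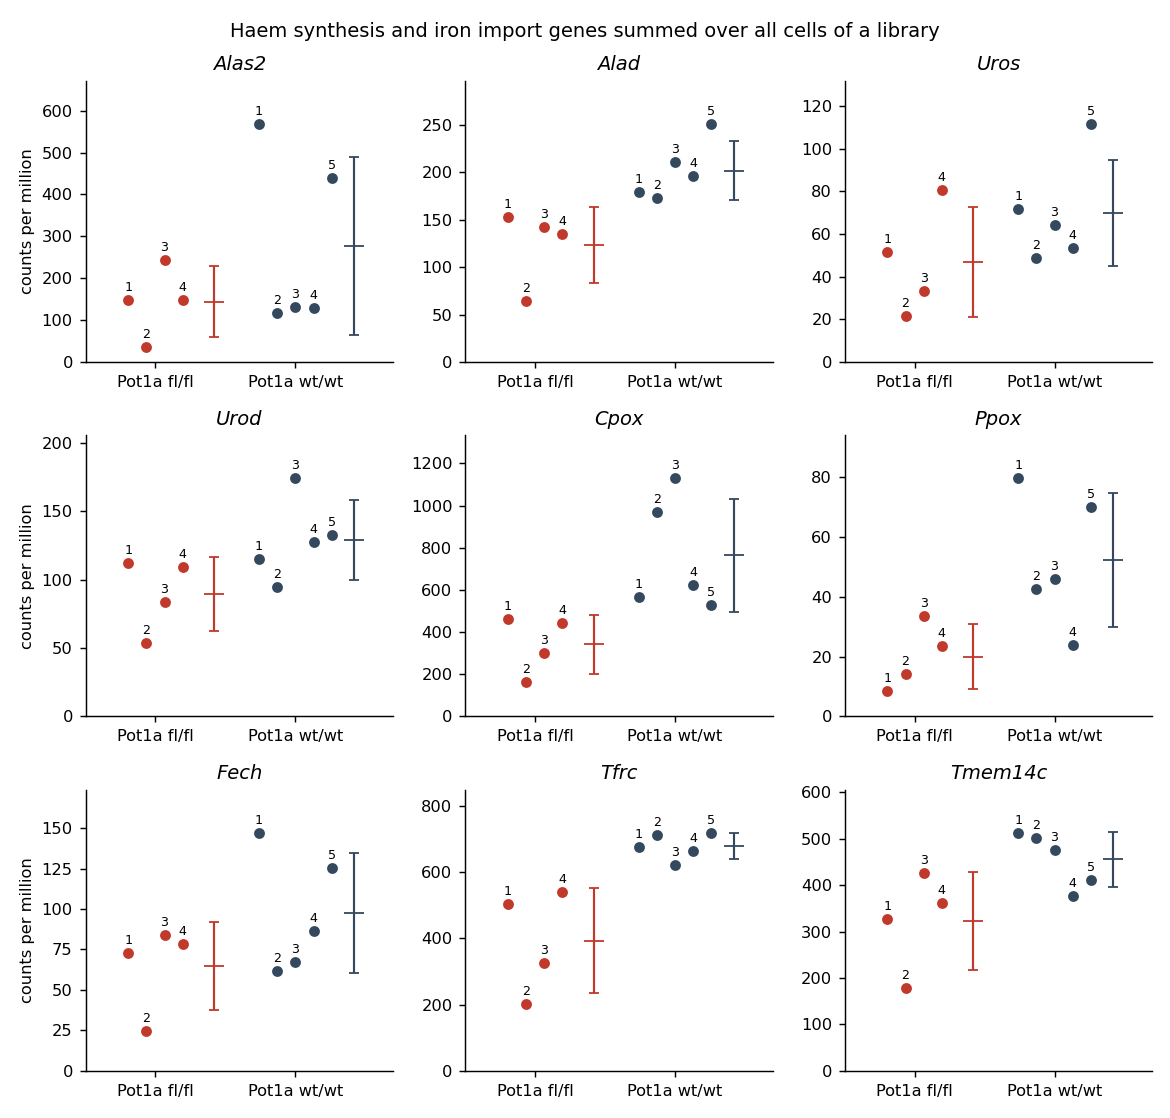
Level of each gene in CPM, summed over all cells of a library; points are libraries with their numbers, Pot1a fl/fl left (n = 4) and Pot1a wt/wt right (n = 5), and the bars beside them are the mean and SD. Pot1a fl/fl libraries lie below all Pot1a wt/wt libraries for Cpox, Tfrc and Alad, and Pot1a fl/fl 2 is lowest for every gene but Ppox.

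In edgeR's quasi-likelihood test 3 of 4559 genes passed an adjusted p of 0.05 (0.0658%), and 0 of the 9 members did, nor did any in DESeq2. At an unadjusted p of 0.05, 4 of 9 members were lower in Pot1a fl/fl, as were 3.07% of all genes tested. Cpox had a log2 fold change of -1.09 (SE 0.28, adjusted p = 0.333 in edgeR), Ppox of -1.48 (SE 0.47, adjusted p = 0.371), Tfrc of -0.74 (SE 0.24, adjusted p = 0.371) and Alad of -0.66 (SE 0.25, adjusted p = 0.496). The other 5 ran from -0.98 (SE 0.53) for Alas2 to -0.40 (SE 0.36) for Uros, so the median of the 9 was -0.66, against -0.002 over all genes tested. Without the filter on low counts, Cpox passed (adjusted p = 0.00244 in edgeR), with a log2 fold change of -1.12.

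The cells themselves differed alongside. The Pot1a fl/fl libraries held 21.8 ± 5.56 erythroid-like cells (SD, n = 4) and the Pot1a wt/wt libraries 35.8 ± 4.66 (SD, n = 5), and erythroid-like cells gave 24.3% ± 6.14 of the counts in Pot1a fl/fl and 43.0% ± 8.48 in Pot1a wt/wt libraries. Of the 38 erythroid markers, which include the globins and none of the members, 33 were in the tables, none at 0, and 28 of the 30 tested were lower in Pot1a fl/fl, with a median log2 fold change of -0.76; their summed level ran from 11072 to 53608 CPM in Pot1a fl/fl and from 21342 to 90565 CPM in Pot1a wt/wt libraries. Of the 22 granulocyte markers, 21 were in the tables, none at 0, and 16 of the 19 tested were higher in Pot1a fl/fl (median 0.82), with summed levels of 65989.8 to 146858 CPM in Pot1a fl/fl and 34625 to 107119.6 CPM in Pot1a wt/wt libraries. Of the 24 B-lineage markers, all in the tables and none at 0, 17 of the 18 tested were lower in Pot1a fl/fl (median -0.31). Their summed levels were 1857 to 3096 CPM in Pot1a fl/fl and 2124 to 4582 CPM in Pot1a wt/wt libraries. Over all genes tested, 50.25% were lower. The part of these cells and markers in the members' difference was not tested.

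With the erythroid-like cells left out, an alternative chosen after seeing the data, 4 members kept enough counts for a test. Alas2 had a log2 fold change of -1.26 (SE 0.51), Cpox of -0.87 (SE 0.35), Tfrc of -0.40 (SE 0.27) and Tmem14c of 0.06 (SE 0.30), with adjusted p from 0.827 to 0.978 in edgeR. Cpox had 60.3, 46.7, 24.3 and 51.7 CPM in these cells of Pot1a fl/fl 1 to 4, against 62.3, 98.4, 162, 61.1 and 86.2 CPM in Pot1a wt/wt 1 to 5. All Pot1a fl/fl libraries were below all Pot1a wt/wt libraries for Cpox, as they were for 1.01% of the 3060 genes tested in these cells. Ppox was left out of the model here, with 4 counts in Pot1a fl/fl and 17 in Pot1a wt/wt. It had 0, 8.50, 0 and 6.90 CPM in Pot1a fl/fl 1 to 4, against 11.3, 18.4, 25.9, 15.3 and 61.6 CPM in Pot1a wt/wt 1 to 5 also without overlap (two-sided exact permutation p = 0.0238, unadjusted, with the 9 members computed in these cells). Ppox was singled out here after its values were seen, so this p-value is a description and not a test. Ppox was not among the 3060 genes tested, so the 1.01% does not cover it. No such share was computed for genes this sparse. Globins, which these cells should lack, took 4112 to 13648 CPM of their counts in Pot1a fl/fl and 3189 to 27091 CPM in Pot1a wt/wt libraries.

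Counts were then summed over the erythroid-like cells of each library, which sets the number of such cells aside. Here the genotypes overlapped for all 9 members, and none passed the test: 0 of 1809 genes tested (0.0%) were called by edgeR or DESeq2, 0 of the 8 members that could be tested were called, and 0 of the 8 were lower at an unadjusted p of 0.05, where 23 genes (1.27%) were, with 40 genes higher. The median log2 fold change of the 8 was -0.01, against 0.002 over all genes tested.

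Cpox had 1666, 767, 913 and 1648 CPM in the erythroid-like cells of Pot1a fl/fl 1 to 4, against 1756, 1953, 1989, 1411 and 1109.8 CPM in Pot1a wt/wt 1 to 5. Its log2 fold change was -0.36 (SE 0.25), and that of Tfrc was -0.37 (SE 0.30, adjusted p = 0.998 for both in edgeR). Tfrc had 1196, 438, 779 and 1361 CPM in Pot1a fl/fl, against 1689, 1223, 923, 1289.8 and 1029 CPM in Pot1a wt/wt. For both genes Pot1a fl/fl 1 and 4 lay among the Pot1a wt/wt libraries while Pot1a fl/fl 2 and 3 lay below all of them.

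Alad had 564, 285, 376 and 468 CPM in Pot1a fl/fl and 545, 347, 375, 435 and 499 CPM in Pot1a wt/wt erythroid-like cells, a log2 fold change of -0.001 (SE 0.32). Alas2 had 504, 131, 644 and 489 CPM in Pot1a fl/fl and 1583, 188, 190.3, 278 and 836 CPM in Pot1a wt/wt erythroid-like cells, a log2 fold change of -0.50 (SE 0.66). Of the Pot1a fl/fl libraries 3 of 4 were thus above 3 of the 5 Pot1a wt/wt libraries, and without Pot1a wt/wt 1 the Alas2 fold change was 0.41, on the other side of 0. Fech (0.18, SE 0.44), Urod (0.24, SE 0.31), Uros (0.24, SE 0.44) and Tmem14c (-0.03, SE 0.27) had fold changes smaller than their errors. Ppox was too sparse for the model, with 17 counts in Pot1a fl/fl and 49 in Pot1a wt/wt, and averaged 65.0 ± 33.1 CPM in Pot1a fl/fl (SD, n = 4) and 97.7 ± 80.9 CPM in Pot1a wt/wt (SD, n = 5; two-sided exact permutation p = 0.667).

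**Figure D4:**
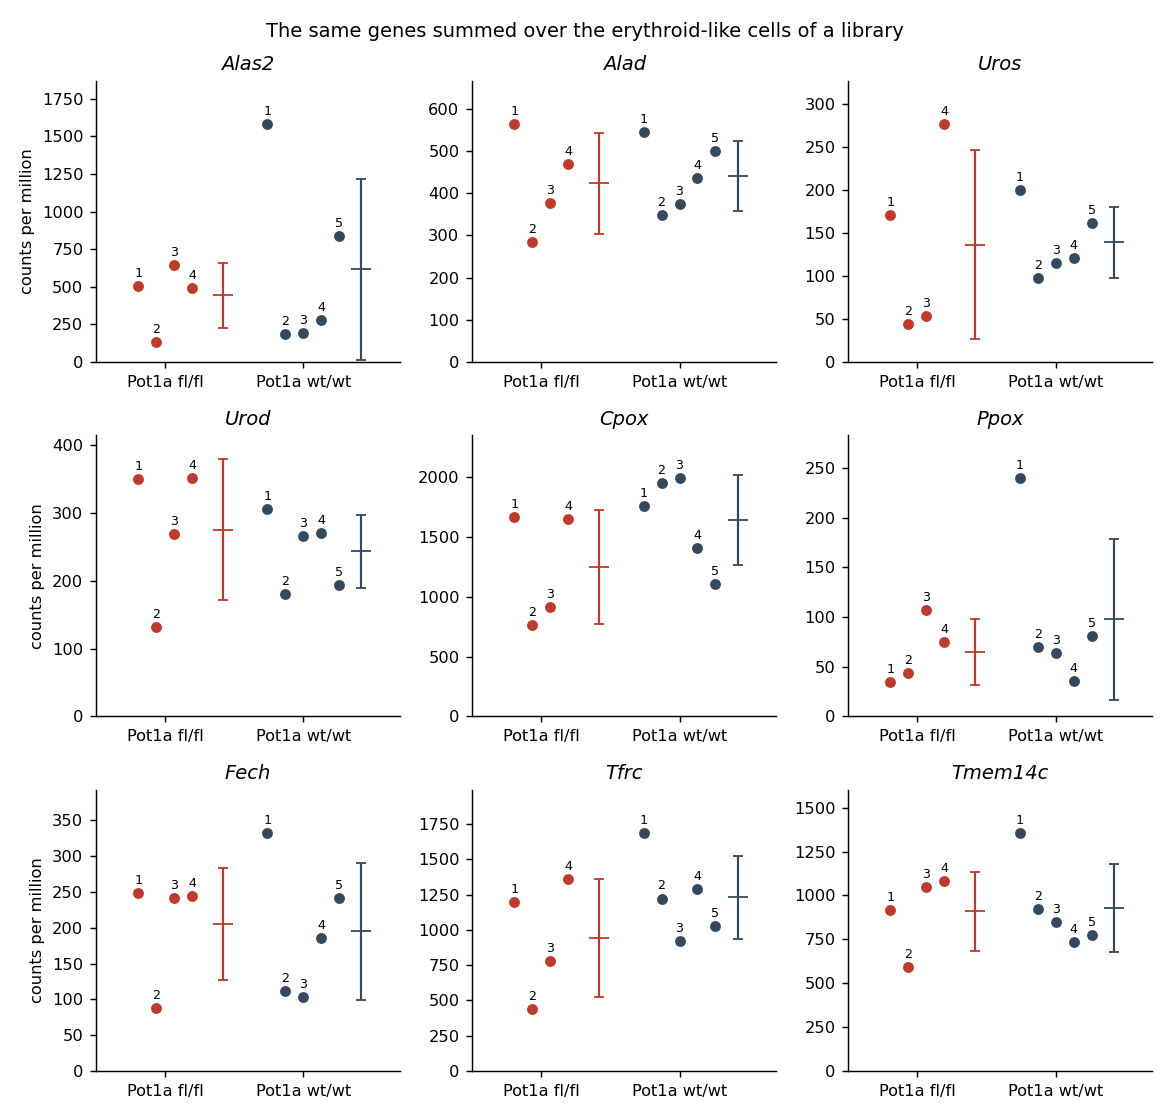
Level of each gene in CPM, summed over the erythroid-like cells of a library; points are libraries with their numbers, Pot1a fl/fl left (n = 4) and Pot1a wt/wt right (n = 5), and the bars beside them are the mean and SD. The genotypes overlap in every panel, and Pot1a wt/wt 1 stands highest for Alas2 (1583 CPM) and Ppox (239 CPM).

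Granulocyte markers moved within these sums too. All 7 tested were higher in Pot1a fl/fl erythroid-like cells (median log2 fold change 0.89, 0 called), as were 911 of all 1809 genes tested. The 21 in the tables, of which Ly6g was at 0, summed to 7805 to 44548 CPM in Pot1a fl/fl and 1202 to 27229.6 CPM in Pot1a wt/wt erythroid-like cells. In the later erythroid-like cells alone, the 6 that could be tested were all lower in Pot1a fl/fl (median -0.67), as were 52.71% of all genes tested there. The part of these markers in the members' values was not tested.

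By stage, the pooled Cpox levels of the genotypes were set apart by their counting intervals in the early cells and not in the later ones, a difference between stages that was not tested. Early erythroid-like cells had 933, 700.4, 329 and 993 CPM of Cpox in Pot1a fl/fl 1 to 4, against 1291, 1367, 1514, 916 and 864 CPM in Pot1a wt/wt 1 to 5. Summed over libraries, Cpox was at 815 CPM in Pot1a fl/fl early cells (674 to 978, 33 cells) and 1267 CPM in Pot1a wt/wt early cells (1149 to 1394, 69 cells), which do not overlap. In globin-poor cells it was at 1802 CPM in Pot1a fl/fl and 2169 CPM in Pot1a wt/wt, and in globin-rich cells at 2296 CPM in Pot1a fl/fl and 2448 CPM in Pot1a wt/wt, with overlapping intervals in both. The libraries of the genotypes overlapped in early cells. Of the 421 Cpox counts in Pot1a wt/wt early cells, 118 and 177 came from Pot1a wt/wt 2 and 3, which shared cell barcodes. With 10 cells required per library the early stage could not be fitted, because only 1 Pot1a fl/fl library had as many, and with 5 cells required the log2 fold change of Cpox was -0.61 (SE 0.28, unadjusted p = 0.0484, adjusted p = 0.805 in edgeR). Alad (0.11, SE 0.31), Tfrc (-0.21, SE 0.30) and Tmem14c (-0.13, SE 0.38) were the other members that could be tested there.

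In the later erythroid-like cells, globin-poor and globin-rich together, 0 of 1106 genes tested (0.0%) and 0 of 8 members were called, with 3 Pot1a fl/fl and 5 Pot1a wt/wt libraries that had at least 10 cells. The library left out was Pot1a fl/fl 2, with 7 such cells, 351 CPM of Tfrc against 1380 to 1915 CPM in Pot1a wt/wt and 877 CPM of Cpox against 1256 to 2973 CPM in Pot1a wt/wt. With it, at a minimum of 5 cells, Tfrc stood at -0.44, Cpox at -0.295 and Alas2 at -0.22, and none was called. At an unadjusted p of 0.05 edgeR had 17 genes lower and 15 higher, none of them a member. The members' log2 fold changes ran from -0.21 (SE 0.26) for Tfrc to 0.51 (SE 0.41) for Uros, with Alas2 at -0.01 (SE 0.51) and a median of 0.05, against -0.02 over all genes tested. Alas2 in globin-rich cells summed to 1531 CPM in Pot1a fl/fl (1234 to 1878, 28 cells) and 1608 CPM in Pot1a wt/wt (1391 to 1848, 61 cells). Fech stood at 399 CPM in Pot1a fl/fl and 391.7 CPM in Pot1a wt/wt globin-rich cells. Ppox in globin-rich cells summed to 99.8 CPM in Pot1a fl/fl (36.6 to 217, 6 counts). In Pot1a wt/wt it summed to 237 CPM (158 to 339.9, 29 counts), and the intervals overlapped. Of these 29 counts, 15 came from Pot1a wt/wt 1. By library, Ppox ran from 37.7 to 332 CPM in Pot1a fl/fl and from 103 to 336 CPM in Pot1a wt/wt globin-rich cells.

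**Figure D5:**
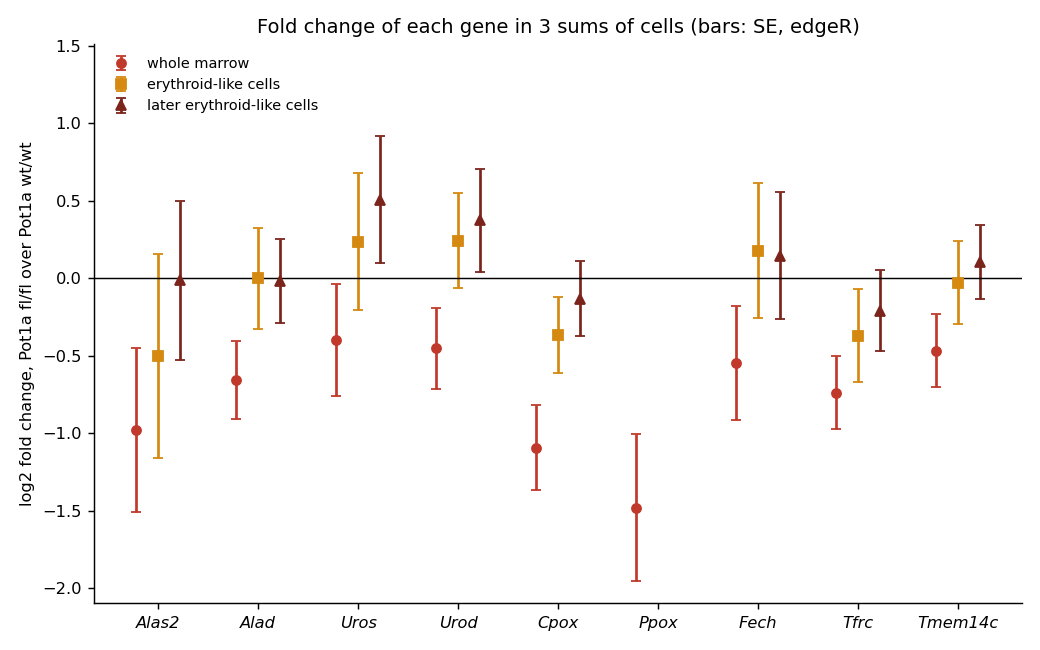
Log2 fold change (Pot1a fl/fl over Pot1a wt/wt) of each gene in sums over whole marrow (circles), erythroid-like cells (squares) and later erythroid-like cells (triangles). Bars are SE derived from edgeR's F statistic, and Ppox could be tested in whole marrow only. All 9 whole-marrow values lie below 0, from -1.48 to -0.40, and the values in erythroid-like cells lie from -0.50 to 0.24.

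Other genes of haem and iron handling were read from the same fits. Of 51 listed genes, 49 were in the tables and 30 could be tested in whole marrow, where 18 were lower in Pot1a fl/fl, 12 were higher and 0 were called by edgeR, with a median log2 fold change of -0.22. At an unadjusted p of 0.05, 7 of the 30 were lower and 2 higher, against 140 lower and 224 higher of all 4559 genes tested. At any p, 50.25% of all genes tested were lower. The 14 tested genes of other haem synthesis and transport split into 10 lower and 4 higher. Among the most negative values were those of Slc25a38, the mitochondrial glycine carrier (-1.06, SE 0.47, adjusted p = 0.566 in edgeR), and Hebp1, a haem-binding protein (-0.83, SE 0.27, adjusted p = 0.388), both short of the threshold. Hebp1 stood at 98.9 ± 42.3 CPM in Pot1a fl/fl (SD, n = 4) and 181 ± 22.6 CPM in Pot1a wt/wt libraries (SD, n = 5). In erythroid-like cells 16 of the 51 could be tested, 7 were lower, 0 were called, and Hebp1 was at -0.19 (SE 0.29). Over all genes tested in these cells, 49.64% were lower.

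The genes with the largest positive values included the housekeeping form of the first enzyme. Alas1, which serves cells other than red cell precursors, was at 111 ± 47.8 CPM in Pot1a fl/fl (SD, n = 4) and 72.5 ± 17.0 CPM in Pot1a wt/wt libraries (SD, n = 5), a log2 fold change of 0.72 (SE 0.30, adjusted p = 0.540 in edgeR) opposite in sign to that of Alas2. Tspo, a protein of the outer mitochondrial membrane that binds porphyrins, was at 0.665 (SE 0.23) and Slc48a1, a haem transporter, at 0.42 (SE 0.37). Neither passed the threshold.

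Across cell classes and libraries the members were compared with each other and with the other genes, of which the 3 most similar were kept for each member. For the 8 members with at least 100 counts, Pearson's r of log2(CPM + 50) was taken over 37 sums of at least 10 cells, 1 for each cluster of a library; the sums share libraries and depth, and r is a description. Alad had Hebp1 (0.951) and Klf1 (0.945), an erythroid transcription factor, among its most similar genes, and Tmem14c was its nearest fellow member (0.930). Cpox and Tmem14c also had Hebp1 (0.932 and 0.923) and Klf1 (0.920 and 0.917) among their first 3. Urod was nearest to Alad (0.890) among the members and had Rhd (0.864), a red cell membrane protein, among its most similar other genes.

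The pattern of Alas2 was that of the late red cell genes instead. Its most similar genes were Slc4a1 (0.922), the anion exchanger of the red cell membrane, and the globins Hbb-bt (0.920) and Hba-a1 (0.913), while its nearest fellow member was Uros at 0.773. Fech was nearest to Isg20 (0.907) and to Eif2ak1 (0.873), the kinase through which low haem slows globin translation. Tfrc was nearest to Fth1 (0.889), the heavy chain of the iron store ferritin, then to the erythroid genes Hemgn (0.872) and Car2 (0.867). Uros, with 153 counts, was nearest to Mgst3 (0.870). The median r over genes with at least 200 counts, members included, was between -0.06 and 0.11 for these 8 members. The similar genes named that are not members also had at least 200 counts.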

How the data were processed

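Per the labels and the methods, the authors prepared Drop-seq libraries of whole marrow, aligned reads to mm10 with STAR and made tables with the Drop-seq software (no versions stated). The deposited values are whole-number counts per gene and barcode; the methods call them read counts, do not say whether molecular identifiers were collapsed, and do not say how the 100 barcodes were chosen. The number of per-sample columns left unused was 0. Barcodes with at least 200 counts and at most 25% mitochondrial counts were kept. Clusters were built in Seurat 5.3.0 (R 4.3.3; anchor integration, 2000 variable genes without the 9 genes, 20 components, resolution 1). A cluster was named by most markers at 2-fold in at least 20% of cells (at least 3, with 2 in its top 10), a rule written after leading genes had been seen. The 39 cells marked by Scrublet (scanpy 1.11.5) stayed in.

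Counts were summed per library and tested across all genes by the quasi-likelihood test of edgeR 4.0.16, with TMM scaling, its default filter on low counts and Benjamini-Hochberg adjustment, at 0.05; DESeq2 1.42.0 was an alternative. The step was tested on simulated data. Each SE was derived as the absolute log2 fold change divided by the square root of edgeR's F statistic, since the test gives none. A gene the model left out was compared by an exact permutation test over libraries. All 9 members were described; other haem and iron genes were named if called, otherwise the 3 largest and 3 smallest fold changes, of which 1 is not reported here. Members and lists were chosen with earlier results of these data known.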

Additional observations from a re-analysis of the deposited data

Results flagged for a closer look

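For the members, 36 groups of values (9 genes, in whole marrow and in erythroid-like cells, by genotype) were looked at for a library far from the others, and 2 were found; chance gives about 1 in 20. Ppox in Pot1a wt/wt 1 stood at 239 CPM, far above the other Pot1a wt/wt libraries at 35.6 to 80.4 CPM, on 18 counts. Fech in Pot1a fl/fl 2 stood at 87.6 CPM, far below the other Pot1a fl/fl libraries at 242 to 248 CPM, on 4 counts. Pot1a wt/wt 1 had the highest share of globin in its erythroid-like cells (19.3%) and Pot1a fl/fl 2 the lowest of its genotype (3.24%). The part of this share in either value was not tested.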

How the results depend on the processing

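In whole marrow, 154 of the 156 log2 fold changes of members recomputed under 18 alternatives kept their direction and their side of the threshold. The exceptions were Cpox without the low-count filter, which passed (-1.124), and Tmem14c with erythroid-like cells left out, at 0.065. Without the low-count filter 69 genes were called in whole marrow, 1 of them a member, against 3 and 0, and 37 in erythroid-like cells, against 0. With Pot1a wt/wt 2 and 3 as 1 library, or with erythroid-like cells left out, 1 gene was called in whole marrow. Leaving out each library in turn gave 1.0 to 3.0 genes in whole marrow (the lowest when Pot1a fl/fl 2, or any Pot1a wt/wt library but number 4, was dropped) and 0.0 to 1.0 in erythroid-like cells (1 without Pot1a wt/wt 3), and 0 members in each.

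In erythroid-like cells, 15 of 159 recomputed values changed sign, and in later erythroid-like cells 14 of 80; all stayed short of the threshold (adjusted p of at least 0.788 in edgeR or DESeq2). Leaving out each library gave, in erythroid-like cells, -0.782 to 0.406 for Alas2, -0.169 to 0.158 for Alad, -0.297 to 0.477 for Uros, -0.056 to 0.548 for Fech and -0.133 to 0.222 for Tmem14c, and in later erythroid-like cells -0.33 to 0.546 for Alas2, -0.146 to 0.074 for Alad, -0.043 to 0.763 for Uros, -0.016 to 0.341 for Fech and -0.004 to 0.281 for Tmem14c. Fech stood at -0.021 in erythroid-like cells with Pot1a wt/wt 2 and 3 as 1 library and at -0.047 in later cells with a minimum of 5 cells per library. With sex of the library as a term, added after the data were seen, Uros stood at -0.052 and Fech at -0.128 in erythroid-like cells. The cause of these changes was not tested.

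Replicate numbers did not pair the libraries (r of same-numbered deviations -0.161 to 0.01). With a replicate block, Alas2 stood at 0.119 and Alad at 0.029 in erythroid-like cells and Alas2 at 0.109 in later cells, and the block called 2 genes in whole marrow and no member. Ppox, Fech and Uros rest on 87 to 206 counts, which limits every split by stage and library.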
